A study of Mus musculus with 4 samples.

Results

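Platelet-derived growth factor (PDGF) signalling was described here through its 4 ligand genes, Pdgfa, Pdgfb, Pdgfc and Pdgfd, and its 2 receptor genes, Pdgfra and Pdgfrb. Members were all probe sets whose only gene symbol in the platform annotation is one of these 6, which gave 14 probe sets out of 45037 after removal of controls. A probe set is a group of short probes on the array that together report 1 transcript region. Each of the 4 arrays read RNA from surface cells of 1 C57BL/6 mouse liver sample at embryonic day 17.5, namely mesothelium, the epithelial sheet that covers the organ, and the cells just beneath it, cut out surgically. The p57-/- samples, whose genotype the labels also write as Kip2 -/-, lack p57, an inhibitor of cyclin-dependent kinases encoded by Cdkn1c, and the p57+/+ samples are wild type. The sample titles place 1 sample of each genotype in experiment 1 and 1 of each in experiment 2, so n = 2 per genotype, and no agent was given. The labels do not say how the null allele was made, what an experiment shared, or whether a sample was 1 embryo or a pool, so any p-value reflects the spread of these particular samples, in part perhaps technical.

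PDGF ligands are secreted as disulphide-linked dimers that draw together receptor tyrosine kinases on neighbouring cells. PDGF-A and PDGF-C act mainly on the alpha receptor, PDGF-D on the beta receptor, and PDGF-B on both. PDGF-C and PDGF-D leave the cell in a latent form and become active once a protease removes their CUB domain. In developing organs epithelial and mesothelial cells are common sources of ligand, while the receptors mark mesenchyme, pericytes and, in the liver, stellate cells.

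The genotype label was checked on Cdkn1c. Wild-type signals of 10255 and 9866 stood against 7.79 and 7.28, both called Absent, in the null samples, so that all 4 labels matched. Between 48.5% and 50.1% of the probe sets of an array were called Present, and the lowest Present signal lay between 12.4 and 15.4. Markers of the labelled tissue were detected, with 10 of 10 mesothelium genes and 10 of 11 fibroblast and mesenchyme genes tested, but so were 7 hepatocyte and 8 erythroid genes, and every sample was therefore a mixture. The desmin gene Des, a classical stellate cell marker, was not called Present on any array. Sex-linked genes separated the samples. Xist, expressed from the inactive X chromosome, gave 12199 in p57+/+ replicate 1 and 86.7 in p57+/+ replicate 2, against 7889 and 6412 in p57-/-. The Y-linked gene Eif2s3y gave 2.56 and 1734 in p57+/+ against 966 and 904 in p57-/-. Both p57-/- arrays thus carried both signals and each p57+/+ array only 1 of them. RNA of male and female cells together gives both signals, so each p57-/- sample may have held more than 1 embryo, though the labels name no pool. Both signals occurred together only in p57-/-, so their part in the results below cannot be told apart from that of genotype. It was not tested.

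Among the tested PDGF probe sets those of Pdgfc had the largest difference between genotypes, and both of its probe sets were higher in p57-/- in both experiments. No member passed the threshold. Pdgfra and Pdgfrb were modestly higher in p57-/-, mostly in experiment 1, and the 95% intervals of both included 0. Pdgfa was higher in experiment 2 with both of its probe sets, and Pdgfb and Pdgfd were at or below the detection limit. The fit was limma on log2 MAS5 signal over the 22800 probe sets with a Present call on 2 or more arrays, two-sided, with Benjamini-Hochberg adjustment and a threshold of 0.05. Only 1 of these, that of Cdkn1c, passed (0.00439%). Of the 14 members 6 were tested, 2 each for Pdgfa and Pdgfc and 1 each for Pdgfra and Pdgfrb, and all 6 were called Present on all 4 arrays, so none entered through 1 genotype alone. The other 8 were called Present on 1 array (2 probe sets) or on none (6).

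The promoter of Pdgfc is shown because Pdgfc had the largest difference among the tested PDGF probe sets. The 250 bases before its start on the plus strand (GRCm38.p6, chr3:81036166-81036415, sequence from RefSeq) are printed with a CArG box in capitals, the element that serum response factor binds in many genes that answer growth factors.

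Pdgfc: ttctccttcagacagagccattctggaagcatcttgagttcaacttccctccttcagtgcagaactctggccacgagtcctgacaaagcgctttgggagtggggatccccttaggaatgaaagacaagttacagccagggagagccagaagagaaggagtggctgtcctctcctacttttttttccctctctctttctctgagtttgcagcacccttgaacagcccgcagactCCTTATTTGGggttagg

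The box lies 17 to 8 bases before the start, and a CArG box was found in 1.47% of the 32851 promoter windows of this length in the table, which cover 27025 genes. Searched on both strands, the window held none of GGGCGG (in 32.7% of windows), CCAAT (33.8%), TATAAA (12.4%) or the AP-1 site TGANTCA (6.75%). These are matches of letters, and no binding was measured.

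The ligand genes were led by Pdgfc, which encodes the latent ligand of the alpha receptor. Probe set 1449351_s_at of Pdgfc gave signals of 192 and 201 in p57+/+ replicates 1 and 2, and of 652 and 285 in p57-/- replicates 1 and 2. Both p57-/- signals were above both p57+/+ signals, but the p57-/- arrays differed 2.28-fold from each other while the p57+/+ arrays were almost equal. In experiment 1 p57-/- was 3.40-fold above p57+/+, and in experiment 2 it was 1.42-fold above. The fitted log2 change, p57-/- minus p57+/+, was 1.14 (SE 0.34), with a 95% interval of 0.37 to 1.90 before adjustment, and it did not pass (limma adjusted p = 0.549).

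The other Pdgfc probe set, 1419123_a_at, gave 214 and 139 in p57+/+ against 494 and 265 in p57-/-. The genotypes again did not overlap, and the experiments were closer to each other than with the first probe set, at 2.31-fold in experiment 1 and 1.92-fold in experiment 2. Its fitted log2 change was 1.07 (SE 0.33, limma adjusted p = 0.549). Both probe sets share the 4 RNA samples, so the second is no replicate of the first, and their fitted changes differed by less than either SE.

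**Figure D1:**
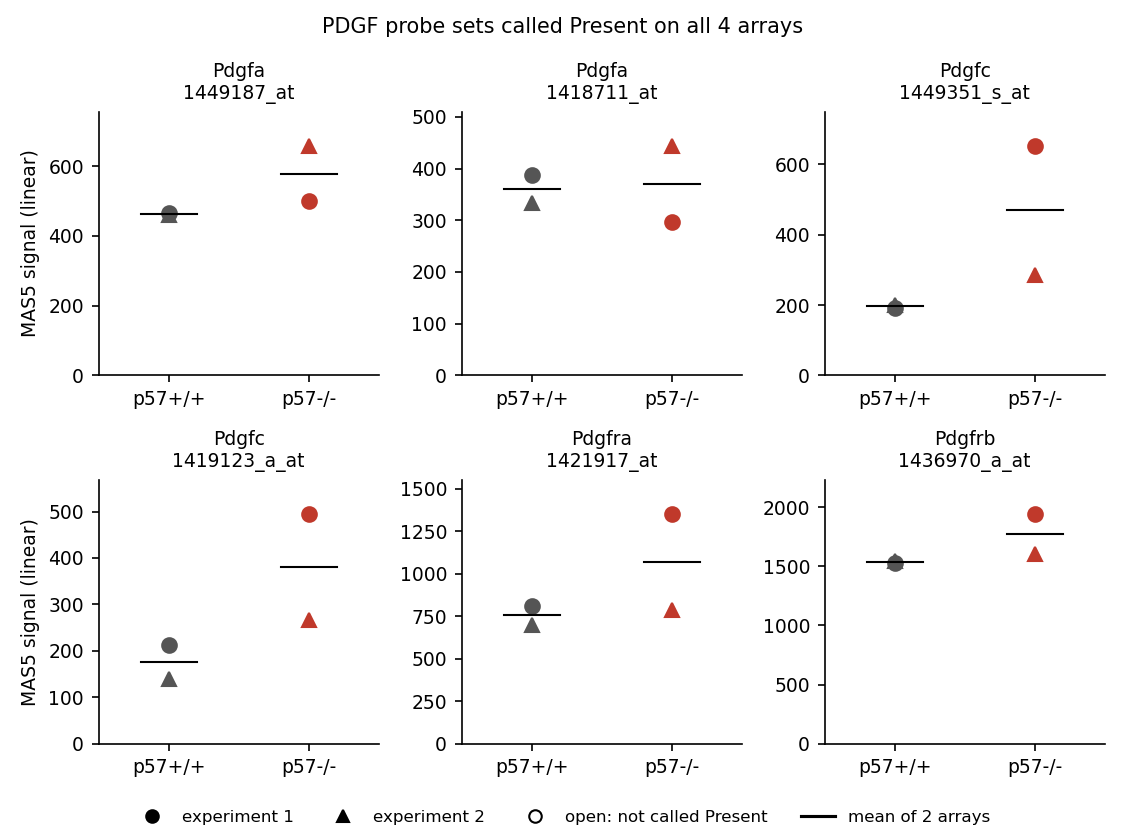
MAS5 signal on a linear scale, from 0, of the 6 PDGF probe sets called Present on all 4 arrays, for p57+/+ (grey) and p57-/- (red); circles are experiment 1, triangles experiment 2 and lines the mean of 2 arrays. Both Pdgfc probe sets show p57-/- above p57+/+ without overlap, with p57-/- replicate 1 the highest array (652 and 494), whereas Pdgfa is highest in p57-/- replicate 2.

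Pdgfa encodes the classical ligand of the alpha receptor. Its brighter probe set, 1449187_at, gave 465 and 461 in p57+/+ against 499 and 658 in p57-/-. The p57-/- signals were the higher ones in both experiments, by 1.07-fold in experiment 1 and by 1.43-fold in experiment 2, the reverse of the order seen for Pdgfc. The log2 change was 0.31 (SE 0.19, 95% interval -0.12 to 0.74, limma adjusted p = 0.719).

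The second Pdgfa probe set, 1418711_at, gave 388 and 333 in p57+/+ against 297 and 444 in p57-/-. The genotypes overlapped, and the change within an experiment was -0.38 on the log2 scale in experiment 1 and 0.41 in experiment 2. The fitted log2 change was 0.02 (SE 0.23, 95% interval -0.51 to 0.54, limma adjusted p = 0.990). The probe sets of Pdgfa therefore differed in direction in experiment 1 and had the same direction in experiment 2.

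Pdgfb encodes the ligand that binds both receptors and that endothelial cells use to recruit pericytes. Neither probe set was tested. Probe set 1450414_at gave 64.6 and 97.5 in p57+/+ against 110 and 106 in p57-/-, all called Absent. Probe set 1450413_at gave 34.2 and 46.9 in p57+/+, both Absent, and 77.5, called Present, and 65.5, called Absent, in p57-/-. Only 1 of the 4 arrays measured it, and no fold is given. With both probe sets the p57-/- signals lay above the p57+/+ signals. Of the tested probe sets 19.8% had this order, but that share does not cover untested probe sets such as those of Pdgfb. Nearly all of these Pdgfb signals were called Absent, so no direction is read from them.

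Pdgfd encodes the latent ligand of the beta receptor. Of its 3 probe sets, 1456532_at was called Present only in p57-/- replicate 2, at 50.1, beside 35.6 in the other p57-/- sample and 35.7 and 29.4 in p57+/+. Probe set 1446691_at gave 16.9 and 46.4 in p57+/+ against 51.3, called Marginal, and 7.59 in p57-/-. Probe set 1426319_at gave 31.6 and 2.63 in p57+/+ against 21.0 and 19.5 in p57-/-, all Absent. The genotypes overlapped with all 3, and Pdgfd was not measurable at this signal in either genotype.

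**Figure D2:**
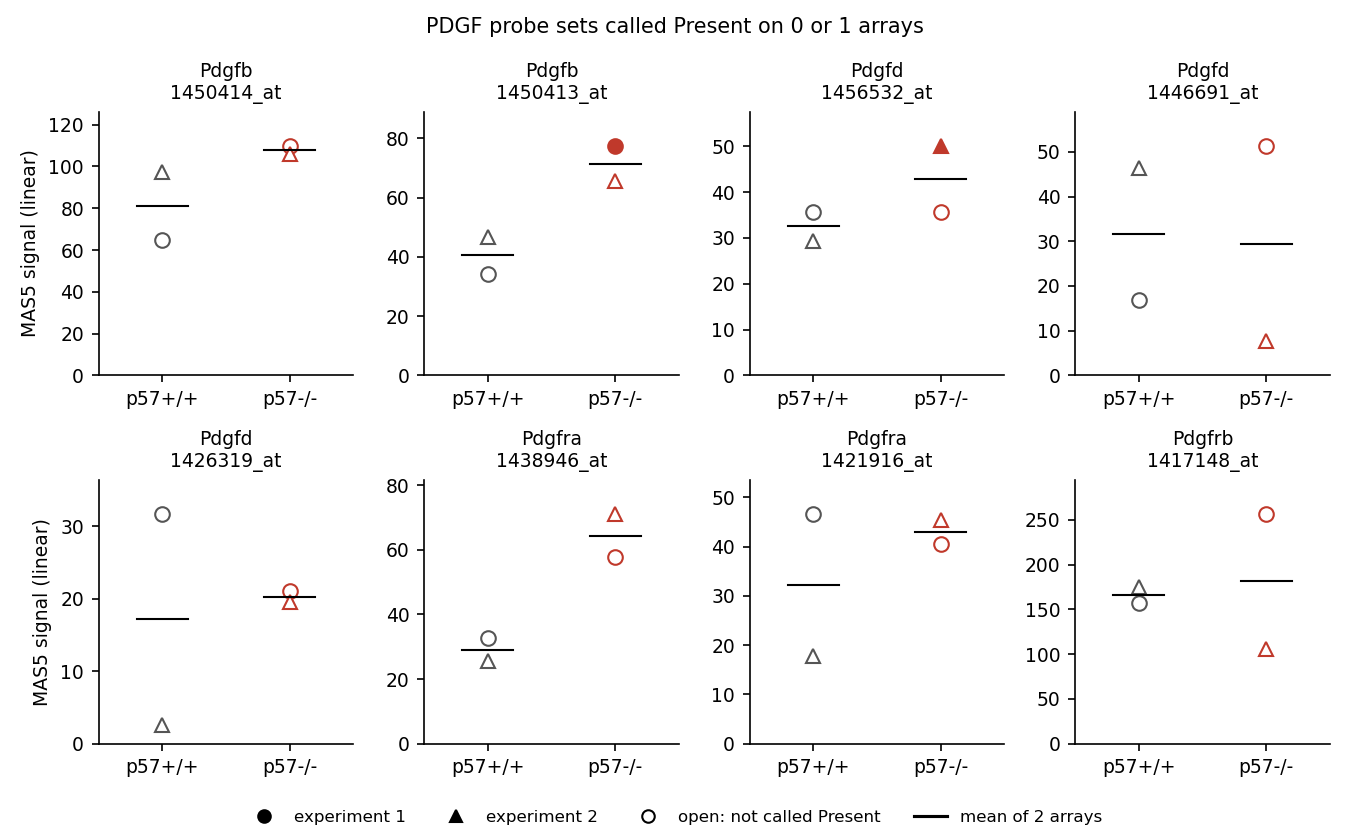
MAS5 signal on a linear scale, from 0, of the 8 PDGF probe sets called Present on at most 1 array, for p57+/+ (grey) and p57-/- (red); open symbols were not called Present, circles are experiment 1 and triangles experiment 2. Only 1 Pdgfb array (77.5) and 1 Pdgfd array (50.1), both p57-/-, carry a filled symbol.

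Among the receptors, Pdgfra encodes the alpha receptor of mesenchymal cells, the receptor for PDGF-A and PDGF-C. Probe set 1421917_at of Pdgfra gave 812 and 701 in p57+/+ against 1351 and 786 in p57-/-. The array of p57-/- replicate 1 stood above the other 3, and p57-/- replicate 2 lay between the p57+/+ arrays. The difference was 1.66-fold in experiment 1 and 1.12-fold in experiment 2, and the fitted log2 change was 0.45 (SE 0.24, 95% interval -0.08 to 0.98, limma adjusted p = 0.679).

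The other Pdgfra probe sets were Absent on all 4 arrays. Probe set 1438946_at gave 32.7 and 25.5 in p57+/+ against 57.7 and 71.0 in p57-/-, without overlap, and 1421916_at gave 46.6 and 17.9 against 40.5 and 45.4, with overlap. No fold is given, and no direction is read, for probe sets below detection in both genotypes.

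Pdgfrb encodes the beta receptor, which pericytes and stellate cells carry and which binds PDGF-B and PDGF-D. Probe set 1436970_a_at of Pdgfrb gave 1527 and 1547 in p57+/+ against 1941 and 1606 in p57-/-. Both p57-/- signals were above both p57+/+ signals, the second by only a small margin, with 1.27-fold in experiment 1 and 1.04-fold in experiment 2. The log2 change was 0.20 (SE 0.14, 95% interval -0.12 to 0.52, limma adjusted p = 0.759). The other Pdgfrb probe set, 1417148_at, was Absent throughout, at 157 and 175 in p57+/+ against 256 and 106 in p57-/-.

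**Figure D3:**
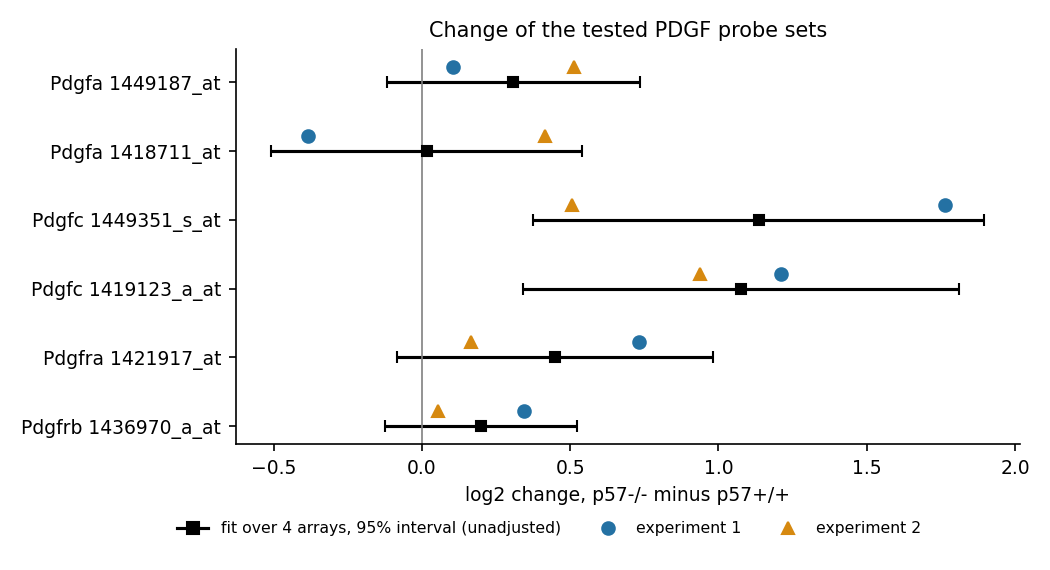
Log2 change, p57-/- minus p57+/+, of the 6 tested PDGF probe sets: squares are the fit over 4 arrays with its unadjusted 95% interval, circles experiment 1 and triangles experiment 2. The intervals of the 2 Pdgfc probe sets (from 0.37 and 0.34) lie above 0, and those of the other 4 include 0.

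Counted over the tested members, 5 of 6 probe sets were higher in p57-/- in both experiments, where 27.9% of all tested probe sets were, and the other, of Pdgfa, went in opposite ways (45.3% of all). No tested member was lower in both, as 26.8% were. In 4 of 6 both p57-/- signals lay above both p57+/+ signals, against 19.8% of all, and 2 of 6, those of Pdgfc, had an unadjusted limma p under 0.05 with the higher signal in p57-/-, against 3.93%. At least 2-fold above p57+/+ were 2 of 6 in experiment 1 (2.27% of all) and 0 of 6 in experiment 2 (1.59%). The median log2 change of the 6 was 0.38, beside 0.01 over all probe sets tested. The 6 probe sets report 4 genes on the same 4 samples, so they are not independent. The members were chosen with earlier results of these data known, so these shares are a description only.

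The size of the Pdgfc difference depended on which array was left out. Without p57-/- replicate 2, probe set 1449351_s_at was at 1.73 (SE 0.26) and passed the threshold (limma adjusted p = 0.0128), in a fit that called 98 probe sets higher (0.430% of those tested). Without p57-/- replicate 1 it was at 0.54 (SE 0.29, adjusted p = 0.878). The other Pdgfc probe set, 1419123_a_at, was at 1.52 without p57-/- replicate 2, where it did not pass (limma adjusted p = 0.0515), and at 0.63 without p57-/- replicate 1. Leaving out p57+/+ replicate 1 or 2 put it at 1.39 or 0.76. For Pdgfra the corresponding values were 0.84 (SE 0.18, adjusted p = 0.0584) and 0.06 (SE 0.19, adjusted p = 0.986). Pdgfrb was at 0.34 and 0.06, and Pdgfa at 0.11 and 0.51, so that Pdgfa moved the other way. In each of these fits the genotype with 1 sample is assumed to vary like the other.

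**Figure D4:**
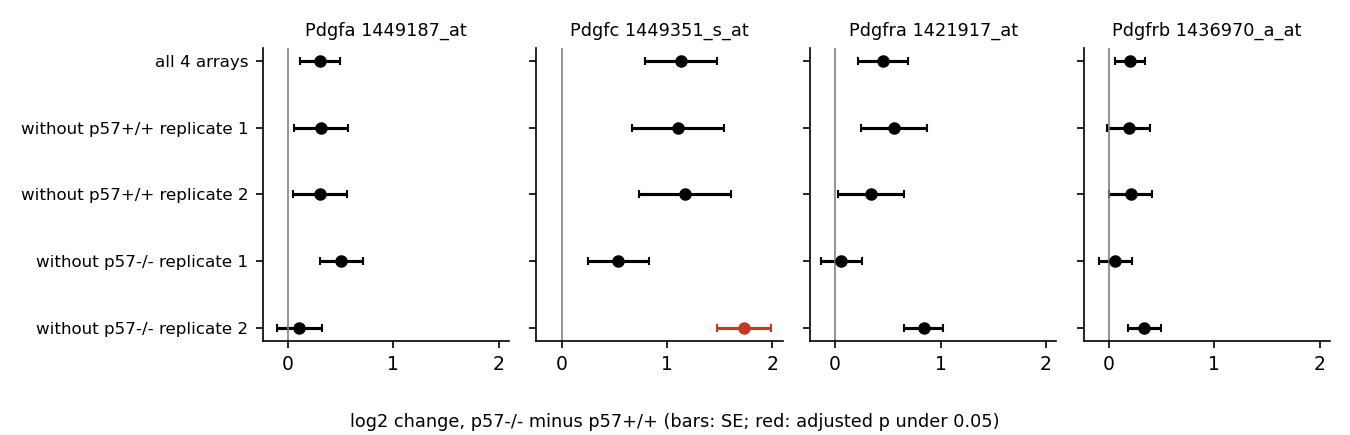
Fitted log2 change, p57-/- minus p57+/+, with its SE, for the brightest probe set of Pdgfa, Pdgfc, Pdgfra and Pdgfrb with all 4 arrays and with each array left out in turn; red marks an adjusted p under 0.05. Pdgfc passes only without p57-/- replicate 2 (1.73), and Pdgfra is near 0 without p57-/- replicate 1 (0.06).

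The genes with the most similar profiles were found among 10418 other genes called Present on all 4 arrays, by the Euclidean distance between log2 signals centred on their mean over the 4 arrays. For Pdgfc these were Pfkp, Zbtb8b and S100a4, at distances of 0.24, 0.26 and 0.27. Pfkp, the platelet-type phosphofructokinase gene of glycolysis, gave 285 and 357 in p57+/+ against 1030 and 406 in p57-/-. For Pdgfra they were Slc25a33, Fam214a and Fcgr3, an Fc receptor gene of myeloid cells, at 0.04, 0.07 and 0.08. For Pdgfrb they were Man2a1, Tax1bp3 and Ktn1 (0.02, 0.03 and 0.03), and for Pdgfa they were Tent4a, Lysmd1 and Col4a5 (0.02, 0.03 and 0.05). The distances are a description over 4 arrays.

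The listed pathway genes outside the family did not pass the test either. Of 29 tested genes that relay the signal from the receptors (adaptors, kinases, phosphatases and GTPases), 0 passed the threshold, 10 were higher in p57-/- in both experiments and 6 lower, and the median log2 change was 0.02, beside 0.02 over all 11656 genes tested, of which 3447 were higher in both and 3110 lower. At an unadjusted limma p under 0.05 there was 1 higher and 0 lower, where 4.70% of all 11656 genes were higher and 4.07% lower, so the share of this list was not above that of all genes. The gene was Grb7, which encodes an adaptor that binds activated receptor tyrosine kinases, at 608 and 717 in p57+/+ against 821 and 945 in p57-/- (log2 change 0.42, SE 0.17, adjusted p = 0.626). Pik3r1, the regulatory subunit of the lipid kinase that PDGF receptors recruit, was at -0.22 (SE 0.14), and Src was at 0.08 in experiment 1 and -0.82 in experiment 2.

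Of 24 tested genes that process or bind PDGF or that end receptor signalling, 0 passed. In both experiments 10 were higher and 4 lower, beside 3447 and 3110 of all 11656 genes, and the median was 0.08. At an unadjusted limma p under 0.05 there were 1 higher and 2 lower, beside 4.70% and 4.07% of all genes. Spry2, a feedback inhibitor that growth factor signalling induces, gave 184 and 132 in p57+/+ against 306 and 200 in p57-/- (log2 change 0.67, SE 0.29, adjusted p = 0.642). Plau, which encodes the urokinase that activates PDGF-D, gave 55.8 and 59.5 against 101 and 96.7 (0.78, SE 0.37, adjusted p = 0.653). Plat, which encodes the tissue plasminogen activator that activates PDGF-C and was named after its values were seen, gave 191 and 135 against 182 and 152 (0.05, SE 0.28). Nrp1, which encodes a co-receptor of PDGF and VEGF, was at -0.34 (SE 0.14), and the phosphatase gene Acp1 was at -0.34 (SE 0.13).

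The closest relatives of the family did not pass in limma either, and at an unadjusted p under 0.05 there were 1 higher, Csf1, and 0 lower (4.70% and 4.07% of all genes). Of 8 tested VEGF relatives and receptors 3 were higher in both experiments and 1 lower, with a median of 0.12, of 0.34 in experiment 1 and of -0.14 in experiment 2. Vegfb was at 0.33 (SE 0.17) and Vegfa, the main endothelial growth factor gene, at 0.36 (SE 0.22). Of 5 tested class III receptor kinases, the receptor class to which both PDGF receptors belong, and their ligands, 3 were higher in both and 0 lower, with a median of 0.23. Of all 11656 genes, 3447 were higher in both experiments and 3110 lower. Csf1, the macrophage growth factor gene, gave 339 and 431 in p57+/+ against 578 and 483 in p57-/- (0.47, SE 0.20, limma adjusted p = 0.642). Kit, the stem cell factor receptor gene, was at 0.27 (SE 0.16).

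Values of markers are given next for cells that carry or release PDGF components, although none of these genes passed the test. In a mixed sample fewer cells of a type and less RNA per cell cannot be told apart. Over all 11656 genes tested, 3447 were higher in p57-/- in both experiments, 3110 were lower, and 5099 changed in opposite directions. Of 10 tested fibroblast and mesenchyme genes, 5 were higher in p57-/- in both experiments and 2 lower, with a median of 0.26 in experiment 1 and 0.01 in experiment 2. Their summed signal was 69930 and 78939 in p57+/+ against 89464 and 81781 in p57-/-, and Thy1 was not detected, which for the lists means a Present call on fewer than 2 arrays. Summed signals here and below add linear signals, so the brightest genes weigh most in them, here Col1a2 and Col3a1. Dcn, the gene of the matrix proteoglycan decorin, gave 7910 and 8930 in p57+/+ against 14270 and 10283 in p57-/- (log2 change 0.53, SE 0.16, limma adjusted p = 0.549). Col1a1, 1 of the 2 lower genes, gave 2469 and 2465 in p57+/+ against 2071 and 2134 in p57-/- (log2 change -0.23, SE 0.12).

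Of 13 hepatic stellate cell and pericyte genes 10 were tested, while Des, Cspg4 and Cygb were not detected. In both experiments 6 were higher and 3 lower, beside 3447 and 3110 of all 11656 genes. The 10 tested genes had medians of 0.30 and 0.10 in experiments 1 and 2. Their summed signal was 22700 and 23025 in p57+/+ against 28757 and 25217 in p57-/-. Most of it came from Reln, at 13342.5 and 14714 in p57+/+ against 16376 and 15974 in p57-/-. The channel gene Kcnj8 gave 397 and 309 in p57+/+ against 913 and 343 in p57-/-, so that only p57-/- replicate 1 stood apart, and Hand2, a stellate cell transcription factor gene, gave 711 and 625 against 975 and 913. Rgs5, a pericyte gene, went the other way, at 104 and 114 against 79.3 and 41.8. Smooth muscle genes were mostly below detection, with 3 of 7 tested, summed signals of 2454 and 2784 in p57+/+ against 2740 and 2133 in p57-/-, and Myh11, Cnn1, Actg2 and Lmod1 not detected.

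Megakaryocytes and platelets store PDGF. Of 10 listed genes 8 were tested, and all 8 were higher in p57-/- in experiment 1 and lower in experiment 2. Of all 11656 genes, 5099 went in opposite ways. The 8 tested genes had medians of 0.80 and -0.18 in experiments 1 and 2. Their summed signal was 11593 and 13248 in p57+/+ against 19269 and 12002 in p57-/-, and Gp6 was not detected. Endothelium, a source of PDGF-B, had medians of 0.54 and -0.12 over 8 genes and summed signals of 7790 and 8517 in p57+/+ against 10081 and 7603 in p57-/-, with Pecam1 not detected. Macrophage genes had medians of 0.27 and -0.19 over 10 genes and summed signals of 18344 and 19599 in p57+/+ against 21123 and 16659 in p57-/-. Of these genes 2 were higher in both experiments and 3 lower, beside 3447 and 3110 of all 11656 genes. Among the 3 lower ones, Cd5l gave 5007 and 5817 in p57+/+ against 4233 and 3422 in p57-/- (log2 change -0.50, SE 0.14, limma adjusted p = 0.549). All 8 erythroid genes were lower in both experiments, as were 3110 of all 11656 genes, with a median of -0.51. The erythroid summed signals were 115977 and 122357 in p57+/+ against 75668 and 104724 in p57-/-, the lowest on the array where Pdgfc and Pdgfra were highest. The part of any of these cell types in the PDGF values was not tested.

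Of the 10 mesothelium genes, all tested, 4 were higher in both experiments and 4 lower, beside 3447 and 3110 of all 11656 genes. Mesothelium genes had a median of 0.06 and summed signals of 10644 and 13509 in p57+/+ against 12492 and 14900 in p57-/-. Wt1 and Bnc1, transcription factor genes of the mesothelium, were at 0.64 (SE 0.21) and 0.60 (SE 0.18), and Muc16, a surface mucin gene, at -0.56 (SE 0.25). Hepatocyte genes had medians of 0.19 and -0.20 over 7 genes in experiments 1 and 2, and summed signals of 305942 and 378649 in p57+/+ against 357835 and 338586 in p57-/-, with Tat not detected. Of the 74 genes tested in the 9 cell type lists, 0 passed the threshold in limma. At an unadjusted limma p under 0.05 there were 7 higher and 8 lower, 6 of the latter erythroid. Both shares of the 74 were above the 4.70% and 4.07% of all genes, in lists chosen with earlier results of these data known.

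**Figure D5:**
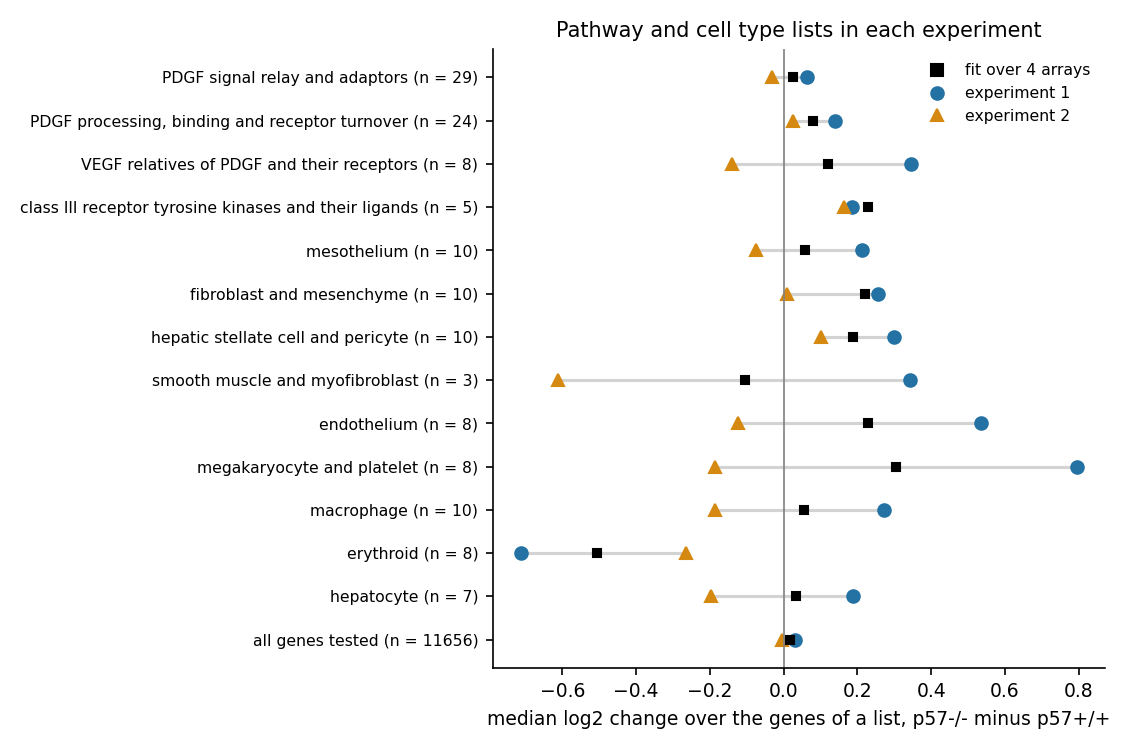
Median log2 change, p57-/- minus p57+/+, over the tested genes of each pathway and cell type list and over all 11656 genes: squares are the fit over 4 arrays, circles experiment 1 and triangles experiment 2, and n is the number of genes. The PDGF relay list lies near 0 in both experiments, whereas megakaryocyte and platelet genes go from 0.80 in experiment 1 to -0.18 in experiment 2.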

How the data were processed

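The data were single-colour Affymetrix arrays, 2 per genotype, made from biotin-labelled cRNA of 250 ng total RNA each, per the labels' protocols. The authors deposited for each probe set a MAS5 signal intensity on a linear scale, with a detection p-value and a detection call, per the file headers. For the MAS5 version and background settings, no value was given in the sources used here. With 2% trimmed from both ends, the mean signal of every array was 500.003, so a change in total RNA is not visible. Signals were log2 transformed with no further normalization or pseudocount, and controls were left out. limma 3.58.1 in R 4.3.3 (eBayes with a variance trend, no block) was run on all tested probe sets. It was tested on simulated data with 200 changed probe sets. There it called 68 of 100 probe sets changed by 1 on the log2 scale, 97 of 100 changed by 3, and 10 of 22600 unchanged ones. The number of changed probe sets in the real data is not known, so these shares need not hold there. A gene is represented by its tested probe set of highest mean log2 signal. No fold is given for probe sets that were not tested. Precision is limited by having 4 arrays.

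The members, the gene lists and the rule for named genes were chosen with earlier results of these data known. The rule names all members, Cdkn1c, the genes of most similar profile, and up to 4 genes per list by lowest p or by a log2 change of at least 0.5. The list genes missing from the counts were not analysed here. Alternatives were an experiment block, quantile normalization, no variance trend, other filters, a signal floor of 16, the series value table, the mean of a gene's probe sets, and leaving out each array.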

Additional observations from a re-analysis of the deposited data

How the results depend on the processing

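With the experiment number as a replicate block, 10 probe sets passed as higher and 20 as lower in limma, none of them a PDGF member, with Pdgfc at adjusted p = 0.103 and 0.0841. Samples of the same number did not deviate together (correlation across probe sets 0.00460), and the labels do not say what a number shared. Leaving out 1 array gave 1 to 98 probe sets higher and 1 to 123 lower. With only probe sets Present on all 4 arrays 0 were lower, because Cdkn1c is then not tested. The leading Pdgfc probe set passed only without p57-/- replicate 2, at 1.73. Over all alternatives its log2 change ran from 0.51 to 1.77 and its adjusted p from 0.0128 to 0.924. Leaving out 1 array moved it between 0.54 and 1.73. The second Pdgfa probe set turned to -0.09 without p57+/+ replicate 2, to -0.27 without p57-/- replicate 2, and to -0.38 in experiment 1 alone, and was at 0.30 without p57-/- replicate 1. The other 78 of 82 comparisons of a member with an alternative kept direction and, where a test was run, side of the threshold. Single experiments had no test. The block, the fit without a variance trend, the filters, the floor and the value table left each member's log2 change unchanged. Their kept direction is therefore no further check. Signals under the detection limit bar any statement on Pdgfb and Pdgfd beyond the signals given.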
